A study of Mus musculus with 20 samples.

Results

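The chemokine genes were taken as all symbols in the count tables made of Ccl, Cxcl, Cx3cl or Xcl, a number and at most 1 further letter. This rule found 38 of 43280 genes, of which 23 were Ccl genes and 13 were Cxcl genes, with *Cx3cl1* and *Xcl1* as the other two. RNA was sequenced in 12 libraries of sorted GFP+ cells, 2 for each of 6 groups, and chromatin accessibility was given as 4 lists of ATAC-seq peaks, 1 for each embryonic group. Embryonic cells came from the intestine and stomach of mice at E13.5, for which the labels give C57BL/6 and the methods describe mixed strain backgrounds. The controls carried Bapx1-cre;Rosa26mTmG, and the *Eed* KO embryos were Eedfl/fl;Bapx1-cre;Rosa26mTmG, so all embryonic groups shared the Cre and the reporter, which turns Cre-expressing cells of the gut mesenchyme and their descendants GFP+. Adult cells came from the small intestine of mice about 10 weeks old, with the villi scraped off. They carried the reporter and a tamoxifen-inducible Pdgfrβ-CreERT2, with floxed *Eed* in the *Eed* KO group, and tissue was taken 2 days after the last of 5 daily tamoxifen injections per the methods. The methods call the 2 libraries of a group biological replicates, and the labels do not tie libraries to animals. P-values thus rest on the spread between libraries of a group, pooled over the groups of a fit and moderated over genes.

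Chemokines are small secreted or membrane-anchored proteins that guide migrating cells through G protein-coupled receptors, and most are named for the spacing of their first cysteines as CC or CXC types. Some are made constantly by stromal cells to position blood precursors and lymphocytes, as *Cxcl12* does through *Cxcr4*, and others are switched on by inflammation and draw in monocytes, neutrophils or T cells. *Eed* is a core subunit of Polycomb repressive complex 2 (PRC2), which keeps genes silent by methylating histone H3.

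Libraries held 30236159 to 39606157 counts on genes in the embryo and 11404712 to 15903642 in the adult. Levels of a gene are given in CPM, its counts scaled by library size with TMM factors that were set separately for embryonic and adult libraries. Different genes are ranked in TPM, which also divides by transcript length. Shares of the chemokine sum are in CPM, so they give more weight to long transcripts. A count of 0 in 1 library allows up to 0.0757 to 0.0992 CPM in the embryo and up to 0.189 to 0.263 CPM in the adult, for counting error only. The targeted gene followed the embryonic labels. *Eed* stood at 38.1 to 41.5 CPM in the 4 embryonic control libraries and at 7.40 to 11.4 CPM in the 4 *Eed* KO libraries. In the adult it stood at 29.6 and 33.4 CPM in control and at 25.6 and 25.01 CPM in *Eed* KO libraries. The log2 fold change was -0.32 ± 0.21 (SE) with an adjusted p of 0.317 (edgeR), so the adult label was not checked by the level of its target in these libraries. The paper's supplement gives an *Eed* deletion efficiency for pericryptal cells isolated from such mice, a measurement not used here. Mesenchymal markers summed to 13323 to 24685 CPM in the embryo, to 11360 and 11878 CPM in adult controls and to 3474 and 4974 CPM in adult *Eed* KO libraries. Macrophage markers summed to 7.06 to 14.3 CPM in the embryo, to 832 and 1211 CPM in adult controls and to 25119 and 25392 CPM in adult *Eed* KO libraries, although all adult cells had been sorted for GFP.

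Promoter sequences of 25 members were at hand from RefSeq, on build GRCm38.p6, as 300 bases from 250 before to 50 after the start. They are shown for members that differed in base composition, in accessibility or in a motif, since these are what the deposited data can be read against. *Cxcl1* and *Cxcl2* encode neutrophil attractants and lie in 1 cluster. In both, capitals mark 2 matches to the NF-κB motif (GGG, any 2 bases, then TTTCC, on either strand), at -89 and -71 in *Cxcl1* and at -97 and -78 in *Cxcl2*, counted from the start to the first base of the match.
*Cxcl1*, chr5:90890995-90891294, plus strand: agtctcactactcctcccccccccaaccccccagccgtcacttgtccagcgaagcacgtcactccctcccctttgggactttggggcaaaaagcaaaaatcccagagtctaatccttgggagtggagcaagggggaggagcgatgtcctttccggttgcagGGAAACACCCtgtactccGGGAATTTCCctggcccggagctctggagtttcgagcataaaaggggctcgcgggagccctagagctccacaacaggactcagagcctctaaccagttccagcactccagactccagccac
*Cxcl2*, chr5:90903649-90903948, plus strand: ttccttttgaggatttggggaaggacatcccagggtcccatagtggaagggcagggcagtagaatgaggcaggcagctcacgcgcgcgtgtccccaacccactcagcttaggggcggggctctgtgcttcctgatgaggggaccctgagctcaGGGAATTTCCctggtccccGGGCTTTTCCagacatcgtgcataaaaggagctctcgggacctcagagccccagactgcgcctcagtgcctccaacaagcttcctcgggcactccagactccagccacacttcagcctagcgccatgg
*Cxcl12* was the most abundant chemokine of the embryonic libraries, and *Ccl3*, a ligand that attracts monocytes and T cells, had next to no counts there and high counts in the adult. In these, capitals mark CpG dinucleotides, of which *Cxcl12* had 20 and *Ccl3* had 3.
*Cxcl12*, chr6:117168285-117168584, plus strand: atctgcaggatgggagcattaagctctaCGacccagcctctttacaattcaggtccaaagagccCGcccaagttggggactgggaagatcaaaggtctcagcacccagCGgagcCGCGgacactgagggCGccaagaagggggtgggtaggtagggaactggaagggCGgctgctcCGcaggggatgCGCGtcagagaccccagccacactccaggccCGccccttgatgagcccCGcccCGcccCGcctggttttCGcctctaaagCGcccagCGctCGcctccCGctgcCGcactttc
*Ccl3*, chr11:83649329-83649628, minus strand: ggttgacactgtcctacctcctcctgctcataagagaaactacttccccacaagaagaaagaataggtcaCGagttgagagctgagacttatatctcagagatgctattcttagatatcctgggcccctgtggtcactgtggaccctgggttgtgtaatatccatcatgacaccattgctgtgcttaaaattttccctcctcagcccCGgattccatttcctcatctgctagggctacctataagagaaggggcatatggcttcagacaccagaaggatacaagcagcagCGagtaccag
The NF-κB motif was found in 5 of the 25 promoters (*Ccl20*, *Cxcl3*, *Cxcl1*, *Cxcl2* and *Ccl9*), against 1.63% of 32851 promoters of this length. A motif of interferon-stimulated response elements (GAAA, any 2 bases, then GAAA, on either strand) was found in 3 (*Ccl19*, *Cxcl10* and *Cxcl14*), against 3.44% of all promoters. The number of CpGs ranged from 2 to 52 with a median of 5 in members and had a median of 7 in all promoters. These matches describe letters in a window and say nothing about binding.

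In the embryo, *Cxcl12* held most of the chemokine CPM, a measure that is not divided by transcript length. The 38 genes together made up 484 and 507 CPM in the control intestine, 704 and 628 CPM in the *Eed* KO intestine, 329 and 275 CPM in the control stomach and 629 and 580 CPM in the *Eed* KO stomach. *Cxcl12*, the ligand of *Cxcr4* and of the scavenger *Ackr3*, held 91.0% to 93.3% of this sum in the 4 intestinal libraries, 82.6% and 74.5% in the control stomach and 91.1% and 90.7% in the *Eed* KO stomach. Per length it led in all 4 embryonic groups, at a mean of 168 TPM in the control intestine, 226 TPM in the *Eed* KO intestine, 88.7 TPM in the control stomach and 215 TPM in the *Eed* KO stomach. *Cxcl13*, a B cell attractant, came next at 37.8, 64.2, 67.6 and 30.6 TPM. The lead of *Cxcl12* over it was thus smaller per length than in CPM, and smallest in the control stomach. *Ccl11*, an eosinophil attractant, followed in both intestinal groups at 18.1 and 24.7 TPM, and *Cxcl14* followed in both stomach groups at 29.8 and 29.5 TPM. At 1 TPM or more stood 10 members in the control intestine, 12 in the *Eed* KO intestine, 10 in the control stomach and 12 in the *Eed* KO stomach. No count was found in any of the 8 embryonic libraries for 11 members, namely *Ccl20*, *Xcl1*, *Ccl21b*, *Ccl19*, *Ccl26*, *Cxcl17*, *Ccl22*, *Ccl17*, *Ccl8*, *Ccl5* and *Ccl4*. Of the 38, 15 passed the filter on low counts and were tested in the embryo.

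**Figure D1:**
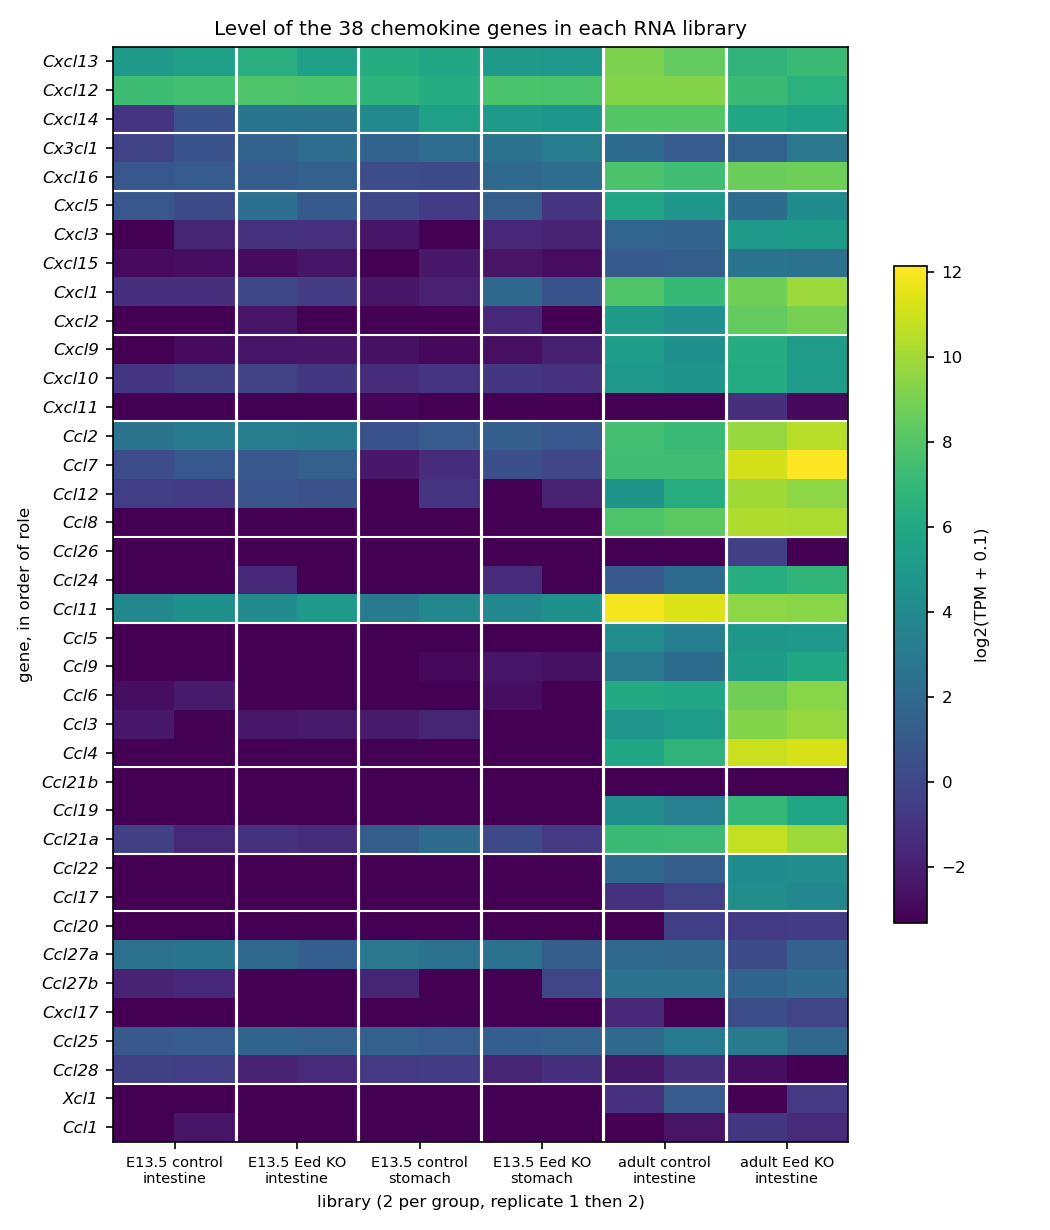
Level of the 38 chemokine genes as log2(TPM + 0.1), with genes as lines of the heat map in order of role and the 12 RNA libraries as columns, 2 per group and replicate 1 first. *Cxcl12* and *Cxcl13* are bright in all embryonic columns, while 11 genes have no count there, and most genes are brighter in the adult columns.

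The first question was which chemokines differ between the control organs. A difference counted as called where edgeR's quasi-likelihood test over 16218 genes gave an adjusted p under 0.05 and the log2 fold change exceeded 1 in either direction. Of the 15 members tested, 2 were called for the intestine and 3 for the stomach as the higher organ, against 1.68% and 3.39% of all genes tested. The intestine had more of the monocyte attractants *Ccl2* and *Ccl7*, and the stomach had more *Cxcl14*, *Cx3cl1* and *Ccl21a*. *Ccl2* stood at 2.36 and 3.06 CPM in the control intestine and at 0.52 and 0.79 CPM in the control stomach. The log2 difference was 2.03 ± 0.32 (SE, adjusted p = 0.0102, edgeR). *Ccl7*, its neighbour on chromosome 11, stood at 0.31 and 0.47 against 0.03 and 0.08 CPM, a log2 difference of 2.76 ± 0.62 (SE, adjusted p = 0.0392, edgeR). Both genes were low in all 4 libraries, and neither pair of groups overlapped.

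*Cxcl14*, a chemokine of epithelia and stroma whose receptor is debated, had the largest difference between the control organs among the members tested. It stood at 0.25 and 0.87 CPM in the control intestine and at 9.68 and 26.1 CPM in the control stomach. The log2 difference was -5.03 ± 0.62 (SE, adjusted p = 0.0034, edgeR), although the 2 stomach libraries themselves were far apart. *Cx3cl1*, a membrane-bound ligand of *Cx3cr1* on monocytes, stood at 1.01 and 1.78 CPM in the intestine and at 3.56 and 5.56 CPM in the stomach, a log2 difference of -1.72 ± 0.38 (SE, adjusted p = 0.0393, edgeR). *Ccl21a*, a ligand of *Ccr7* that lymphatic vessels and lymph node stroma make, had 7 and 2 intestinal and 22 and 47 gastric counts, a log2 difference of -2.73 ± 0.59 (SE, adjusted p = 0.0354, edgeR). Lymphatic endothelial markers summed to 31.5 and 33.7 CPM in the control intestine and to 52.1 and 58.7 CPM in the control stomach. Of these markers 1 of 4 was called higher in the intestine and 1 lower, and of 10 endothelial markers 4 were called higher and 1 lower. The part of these markers in the organ differences was not tested. *Cxcl12* was higher in the intestine, at 452 and 465 CPM against 272 and 205 CPM, with an adjusted p of 0.0086 (edgeR), but its log2 difference of 0.94 ± 0.14 (SE) was under the limit of 1. *Cxcl16*, the other membrane-bound member, did not pass (0.80 ± 0.24, SE, adjusted p = 0.105, edgeR). When any 1 of the 4 control libraries was left out, *Ccl7*, *Cx3cl1* and *Ccl21a* lost their calls, with log2 differences of 2.29 to 3.59, -2.17 to -1.34 and -3.70 to -2.19. *Ccl2* lost its call without control stomach replicate 1 (1.77) and without control intestine replicate 2 (1.84), and *Cxcl14* kept its call in all 4 cases (-6.13 to -4.13). Scaled to the totals of the spike-in RNA, only *Cxcl14* was called, and the log2 differences were 2.29 for *Ccl2*, 2.97 for *Ccl7*, -1.47 for *Cx3cl1* and -2.43 for *Ccl21a*. DESeq2 did not call *Ccl7* (2.86).

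In the stomach, loss of *Eed* went with more *Cxcl12*, *Cxcl16* and *Cxcl1*. These were 3 of the 15 members tested, against 4.84% of all genes called higher, and no member was called lower, against 0.808% of all genes. The median log2 fold change was 0.17 over the members tested and 0.00 over all genes tested. *Cxcl12* rose from 272 and 205 CPM in control to 573 and 525 CPM in *Eed* KO libraries, a log2 fold change of 1.20 ± 0.14 (SE, adjusted p = 0.0037, edgeR). With that, its level in the *Eed* KO stomach stood beside that of the *Eed* KO intestine (641 and 578 CPM), and the log2 difference between the *Eed* KO organs was 0.15 ± 0.14 (SE, adjusted p = 0.638, edgeR). *Cxcl16*, which is shed from the cell surface and binds *Cxcr6* on T cells, rose from 1.16 and 1.07 CPM to 3.65 and 4.28 CPM, a log2 fold change of 1.83 ± 0.23 (SE, adjusted p = 0.0046, edgeR). Its exons overlap those of *Zmynd15* on the other strand, which the stranded embryonic libraries can tell apart. The control libraries held 1 and 2 counts of *Cxcl1* and the *Eed* KO libraries 39 and 15, together 3 against 54, and the ratio of 18.0 had a 95% counting interval from 5.84 to 90.0. Its adjusted p was 0.0174 (edgeR), and it lost its call without control stomach replicate 1, without control stomach replicate 2 or without *Eed* KO stomach replicate 1 (log2 fold changes of 3.75, 4.49 and 3.23). *Cxcl12* and *Cxcl16* kept theirs in all 4 such fits, at 1.01 to 1.42 and 1.71 to 1.94, but *Cxcl16* was not called with 1 factor of variation estimated from the spike-in RNA (1.57, adjusted p = 0.0885, edgeR).

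Other members of the stomach did not pass the test. *Cxcl13* stood at 29.7 and 22.4 CPM in control and at 11.7 and 10.7 CPM in *Eed* KO libraries, without overlap, a log2 fold change of -1.22 ± 0.31 (SE, adjusted p = 0.0541, edgeR) that became 1.16 when libraries were scaled to the totals of the spike-in RNA. *Ccl21a* had 22 and 47 against 10 and 5 counts (-2.16 ± 0.55, SE, adjusted p = 0.0554, edgeR). *Ccl7* stood at 0.03 and 0.08 against 0.32 and 0.22 CPM (2.25 ± 0.64, SE, adjusted p = 0.0786, edgeR). Without control stomach replicate 2 this value was 3.08, still not called. *Cxcl14* was spread over 9.68 and 26.1 CPM in control and 18.0 and 15.7 CPM in *Eed* KO libraries, so the groups overlapped. *Cx3cl1* stood at 6.97 and 10.1 CPM in the *Eed* KO stomach, above both control libraries, but did not pass (0.90 ± 0.35, SE, adjusted p = 0.177, edgeR). In all, 5 of the 15 members were higher and 4 were lower in both *Eed* KO stomach libraries than in both controls, against 27.7% and 27.3% of all genes tested.

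In the intestine, no member was called after loss of *Eed*, against 2.38% of all genes called higher and 0.228% called lower. At an unadjusted p under 0.05 stood 5 of the 15, against 14.0% of all genes, and DESeq2 called 2, for which the share of all genes is not given. *Cxcl14* stood at 0.25 and 0.87 CPM in control and at 3.85 and 3.48 CPM in *Eed* KO libraries, a log2 fold change of 2.74 ± 0.63 (SE, adjusted p = 0.0686, edgeR). *Cx3cl1* stood at 1.01 and 1.78 against 3.64 and 5.48 CPM (1.72 ± 0.39, SE, adjusted p = 0.0642, edgeR). These were the 2 genes that DESeq2 called, and for both the groups did not overlap. *Ccl28*, a mucosal ligand of *Ccr10* and *Ccr3*, stood at 0.84 and 0.74 against 0.24 and 0.31 CPM, a log2 fold change of -1.52 ± 0.38 (SE, adjusted p = 0.0875, edgeR) that turned to 0.31 with spike-in totals. *Cxcl12* stood at 452 and 465 CPM in control and at 641 and 578 CPM in *Eed* KO libraries, a log2 fold change of 0.41 ± 0.14 (SE, adjusted p = 0.224, edgeR). *Cxcl13* stood at 12.8 and 16.7 CPM in control and at 32.9 and 17.1 CPM in *Eed* KO libraries, 1 library near the controls and 1 above. *Ccl11* ranged from 2.72 to 11.2 CPM over the 8 libraries, and its control and *Eed* KO groups overlapped in both organs.

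**Figure D2:**
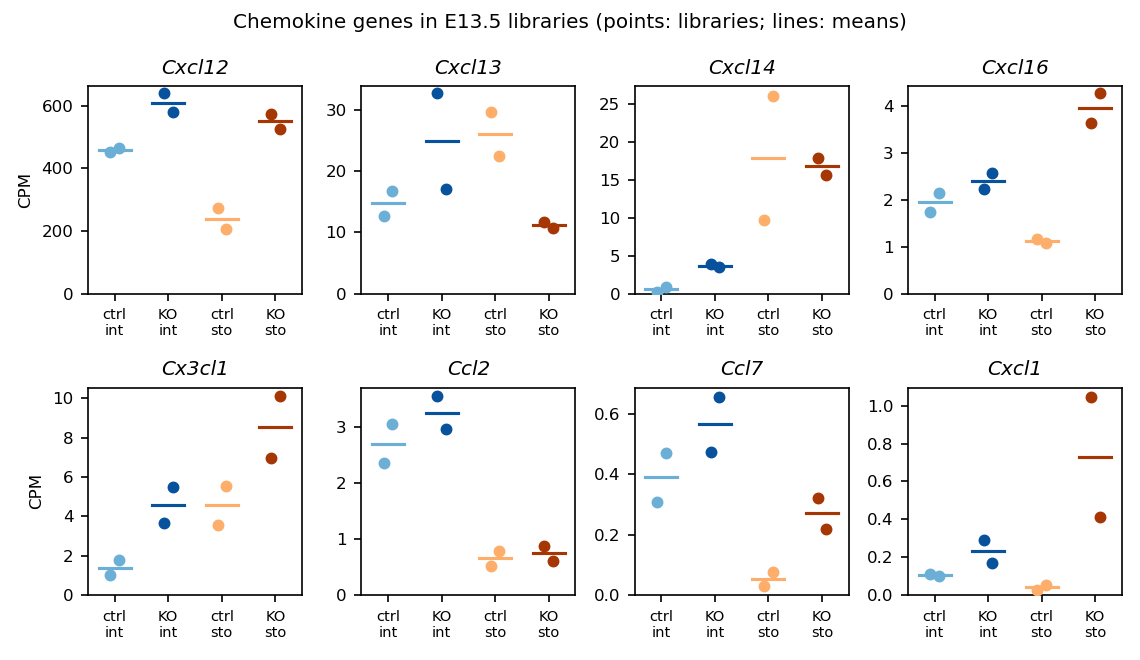
CPM of 8 chemokine genes in the E13.5 libraries, with a point for each library and a line at the mean of the 2 libraries of a group (ctrl, control, KO, *Eed* KO, int, intestine, sto, stomach), on linear axes that start at 0. *Cxcl12*, *Cxcl16* and *Cxcl1* were called higher in the *Eed* KO than in the control stomach, and *Ccl2* stays apart between the organs in both genotypes.

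The *Eed* KO organs were also compared with each other. Of the 15 members tested, 1 was called for each organ as the higher, against 1.46% and 2.94% of all genes. *Ccl2* stood at 3.56 and 2.97 CPM in the *Eed* KO intestine and at 0.88 and 0.60 CPM in the *Eed* KO stomach, a log2 difference of 2.13 ± 0.32 (SE, adjusted p = 0.0097, edgeR), lost without *Eed* KO stomach replicate 2 (1.88). *Cxcl14* stood at 3.85 and 3.48 against 18.0 and 15.7 CPM, a log2 difference of -2.20 ± 0.50 (SE, adjusted p = 0.0449, edgeR), which was lost when any 1 of the 4 libraries was left out (-2.29 to -2.09). Neither was called with spike-in totals (1.96 and -2.44). *Cxcl13* stood higher in the intestine at 32.9 and 17.1 against 11.7 and 10.7 CPM but did not pass (1.16 ± 0.31, SE, adjusted p = 0.0729, edgeR). The *Eed* KO effect was then compared between the organs, at the adjusted p under 0.2 that the study used for this contrast. No member was called, against 0.191% of all genes in 1 direction and 0.271% in the other, while 5 of 15 had an unadjusted p under 0.05, against 5.88% of all genes, and DESeq2 called 3. The smallest adjusted p values belonged to *Cxcl16* (a log2 difference, intestine minus stomach, of -1.52 ± 0.32, SE, adjusted p = 0.245, edgeR) and *Cxcl13* (1.98 ± 0.43, SE, adjusted p = 0.256, edgeR). For *Cxcl12* it was -0.79 ± 0.20 (SE, adjusted p = 0.394, edgeR), so a difference of its response between stomach and intestine was not called. These comparisons share libraries and are not independent of each other. They do not pair organs by replicate number, since no label says that a number marks shared embryos. With a block that takes it so, 5 members were called between the *Eed* KO organs and 3 for the difference between the organs. Shares of all genes called are not given for the block or for DESeq2, so these counts are not read as a trait of chemokines.

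Receptors were read as a list of 20 genes, of which 6 could be tested in the embryo. *Cxcr4*, the *Cxcl12* receptor, was called in both organs. It stood at 1.85 and 1.85 CPM in the control intestine and 4.48 and 4.19 CPM in the *Eed* KO intestine, and at 1.97 and 1.71 CPM in the control stomach and 4.32 and 4.61 CPM in the *Eed* KO stomach. The log2 fold changes were 1.23 ± 0.19 (SE, adjusted p = 0.0189, edgeR) and 1.28 ± 0.19 (SE, adjusted p = 0.0084, edgeR). Of the 4 atypical receptors, which take up chemokines without signalling through G proteins, 3 were tested and 1 was called, *Ackr1*, at 0.51 and 0.64 CPM in the control and 2.08 and 2.37 CPM in the *Eed* KO intestine (log2 fold change 1.96 ± 0.30, SE, adjusted p = 0.0189, edgeR). *Ackr3*, which takes up *Cxcl12*, stood at 35.7 to 54.1 CPM over the 8 libraries and was not called.

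Markers of another cell type moved with these values. Endothelial markers summed to 23.7 to 28.7 CPM in the embryonic controls, to 65.9 and 66.8 CPM in the *Eed* KO intestine and to 38.7 and 61.4 CPM in the *Eed* KO stomach, and 6 of 10 were called higher in the stomach and 5 of 10 in the intestine after loss of *Eed*. *Cldn5*, a junction protein, rose by 5.46 and *Cdh5*, which encodes VE-cadherin, by 3.70 on the log2 scale in the stomach. Their part in the chemokine and receptor results was not tested. *Ptprc*, the common leukocyte antigen CD45, stood at no more than 0.03 CPM in any embryonic library, and macrophage markers summed to 7.06 to 14.3 CPM with 1 of 7 tested called higher (*Mrc1*) and 1 lower (*Lyz2*) in the *Eed* KO stomach. Of the list of NF-κB and acute inflammation genes, 2 of 15 tested (*Tnfaip2* and *Icam1*) rose in the *Eed* KO stomach, and of the interferon response list 2 of 16 (*Psmb8* and *Psmb9*). In bulk samples, fewer cells of a type and less RNA per cell cannot be told apart, here and in all other comparisons.

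Adult control libraries held far more chemokine RNA of more kinds than embryonic ones. The 38 genes summed to 4699 and 4065 CPM in adult control libraries, and 30 members stood at 1 TPM or more, against 10 in the embryonic control intestine. Of the 38, 32 had a higher mean TPM in the adult than in the embryonic control intestine, and 20 stood under 1 TPM in the embryo and at 1 TPM or more in the adult. Shares of all genes were not taken for these counts or for those at 1 TPM, so they are not read as a trait of chemokines. No test was made, since age, Cre driver, library kit and strandedness cannot be told apart. *Ccl11* led in the adult control at a mean of 3143 TPM, followed by *Cxcl12* at 608 TPM, *Cxcl13* at 445 TPM, *Cxcl14* at 269 TPM and *Ccl8* at 266 TPM. Of these, *Ccl8*, a monocyte attractant, had no count in any embryonic library. In CPM, which is not divided by length, *Cxcl12* came before *Ccl11*, at 40.8% and 48.1% against 33.1% and 26.6% of the chemokine sum.

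The adult *Eed* KO libraries differed from their controls in most chemokine genes. Of the 38 members, 30 passed the filter and were tested among 15039 genes. Of these, 21 were higher and 4 lower in the *Eed* KO libraries, against 12.3% and 7.23% of all genes tested. With spike-in totals 16 were higher and 5 lower, and 5 genes lost their calls, namely *Ccl5* (1.26), *Cxcl9* (1.08), *Cxcl10* (1.14), *Cxcl15* (1.57) and *Cxcl16* (1.27). With 1 spike-in factor *Ccl5* (1.36), *Cxcl9* (1.29) and *Cxcl15* (2.09) lost theirs, and with upper-quartile scaling *Cxcl9* (1.21) did. Shares of all genes called are not given for these scalings. The median log2 fold change was 2.65 over the members tested and 0.00 over all genes tested. The sum over the 38 genes was 7083 and 9436 CPM, against 4699 and 4065 CPM in control. The leading gene was now *Ccl7* at a mean of 3384 TPM, followed by *Ccl4* at 2128 TPM, *Ccl21a* at 1290 TPM, *Ccl8* at 1228 TPM and *Ccl2* at 1131 TPM. The share of *Cxcl12* in the chemokine CPM was 9.16% and 4.97%, that of *Ccl11* was 6.07% and 4.64%, and that of *Ccl7* was 14.1% and 23.1%. Because the adult libraries were counted without strand, reads of *Cxcl10*, *Cxcl16* and *Ccl27a* cannot be told apart from those of the genes on the other strand whose exons overlap theirs, *Art3*, *Zmynd15* and *Il11ra1*. *Ccl21a* and *Ccl21b*, and *Ccl27a* and *Ccl27b*, are near-identical copies, and the split of reads between them is uncertain.

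**Figure D3:**
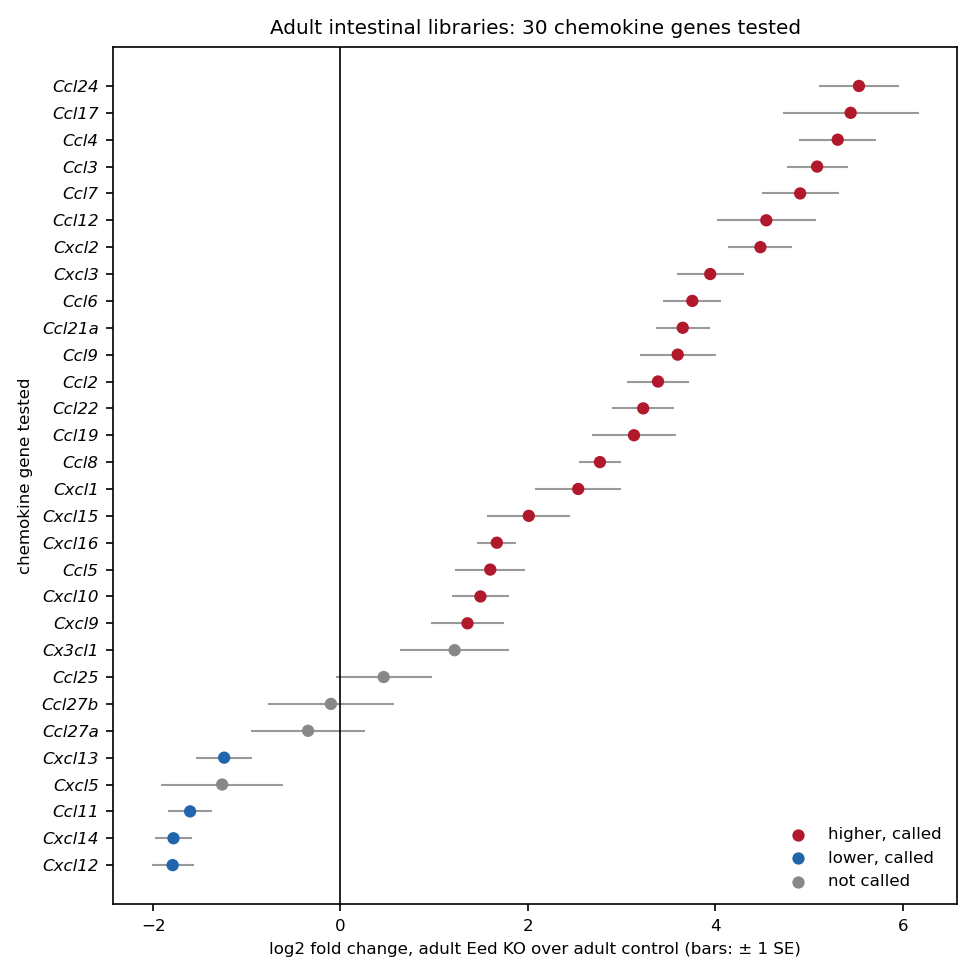
Log2 fold change of the 30 chemokine genes tested, adult *Eed* KO over adult control intestine, on a linear axis, with a bar of 1 SE on each side (edgeR, 2 libraries a group) and colour for the call. The points of 21 genes lie to the right as called higher and 4 to the left as called lower, and 5 were not called.

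The 4 members that fell were those most abundant per length in the adult control libraries. *Cxcl12* stood at 1915 and 1954 CPM in control and at 649 and 469 CPM in *Eed* KO libraries, and fell by 1.79 ± 0.22 on the log2 scale (SE, adjusted p = 0.0020, edgeR). *Ccl11* stood at 1557 and 1082 against 430 and 438 CPM and fell by 1.60 ± 0.23 (SE, adjusted p = 0.0036, edgeR). *Cxcl14* stood at 189 and 193 against 60.7 and 50.4 CPM and fell by 1.78 ± 0.20 (SE, adjusted p = 0.0012, edgeR). In all 3 the groups lay far apart. *Cxcl13* stood at 247 and 157 against 67.7 and 103 CPM and fell by 1.24 ± 0.30 (SE, adjusted p = 0.0257, edgeR), a call lost without adult control replicate 1 (-0.89) or adult *Eed* KO replicate 1 (-0.99).

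Of the monocyte-attracting CC genes, most of which act on *Ccr2*, the receptor that brings monocytes from blood into tissue, all 4 rose. *Ccl2* stood at 80.3 and 63.0 CPM in control and at 534 and 967 CPM in *Eed* KO libraries, a log2 fold change of 3.39 ± 0.33 (SE, adjusted p = 0.0007, edgeR). *Ccl7* stood at 52.4 and 53.6 against 996 and 2180 CPM (4.90 ± 0.41, SE, adjusted p = 0.0004, edgeR), and at 4.23 without adult *Eed* KO replicate 2. *Ccl12* stood at 5.33 and 16.9 against 284 and 236 CPM, a log2 fold change of 4.54 ± 0.53 (SE) that was 3.93 without adult control replicate 1 and 5.61 without adult control replicate 2. *Ccl8* stood at 45.4 and 60.4 against 354 and 368 CPM, a log2 fold change of 2.77 ± 0.22 (SE). With *Ccl11* and *Ccl1*, these genes form a cluster on chromosome 11 (82035571 to 82305690, GRCm38/mm10), in which 4 of 5 genes tested rose and *Ccl11*, the neighbour that encodes an eotaxin, fell. *Ccl24*, the other eotaxin tested, lies elsewhere and stood at 0.95 and 2.1 against 55.5 and 86.9 CPM, a log2 fold change of 5.53 ± 0.43 (SE), the largest among the members tested, and 6.22 without adult control replicate 2.

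The macrophage inflammatory proteins and their relatives, several of which bind *Ccr1*, rose in all 5 genes. *Ccl3* stood at 8.03 and 11.3 CPM in control and at 261 and 397 CPM in *Eed* KO libraries (5.09 ± 0.33, SE, adjusted p = 0.0001, edgeR). *Ccl4* stood at 13.51 and 27.55 against 690 and 936 CPM, a log2 fold change of 5.31 ± 0.41 (SE) that was 5.92 without adult control replicate 2. *Ccl6* stood at 47.6 and 38.6 against 438 and 726 CPM, a log2 fold change of 3.75 ± 0.31 (SE). These genes stand in a cluster of 5 on chromosome 11 (83525778 to 83664683), downstream of the *Ccl2* cluster. *Ccl9* stood at 8.62 and 5.10 against 56.9 and 109 CPM (3.60 ± 0.41, SE). *Ccl5*, which T cells also make, had the smallest change of the 5, at 6.86 and 3.78 against 14.9 and 17.3 CPM (1.60 ± 0.38, SE, adjusted p = 0.0229, edgeR), a call lost without adult control replicate 2 (1.24) or adult *Eed* KO replicate 2 (1.48).

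Of the 5 CXC genes of the neutrophil-attracting group, which act mostly on *Cxcr2*, 4 rose. *Cxcl1* stood at 85.1 and 48.9 CPM in control and at 229 and 548 CPM in *Eed* KO libraries (2.54 ± 0.46, SE, adjusted p = 0.0084, edgeR), and at 1.77 without adult *Eed* KO replicate 2. *Cxcl2* stood at 13.9 and 9.44 against 199 and 322 CPM, a log2 fold change of 4.48 ± 0.34 (SE). *Cxcl3* stood at 1.24 and 1.19 against 16.9 and 20.8 CPM (3.95 ± 0.36, SE). *Cxcl1*, *Cxcl2* and *Cxcl3* each hold at least 1 NF-κB match in the promoter, *Cxcl15* holds none, and no promoter sequence was at hand for *Cxcl5*. *Cxcl15* stood at 1.61 and 1.89 against 7.11 and 7.02 CPM (2.01 ± 0.44, SE, adjusted p = 0.0184, edgeR), a call lost without adult control replicate 1 (1.89). *Cxcl5* stood at 34.9 and 19.2 against 3.81 and 18.5 CPM, without overlap, and did not pass (-1.26 ± 0.65, SE, adjusted p = 0.208, edgeR). Neutrophil markers summed to 9.79 and 41.6 CPM in control and to 45.7 and 53.3 CPM in *Eed* KO libraries, with 1 of 5 tested higher and 1 lower.

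The interferon-inducible ligands of *Cxcr3*, a receptor of effector T cells, also rose. *Cxcl9* stood at 45.6 and 24.9 CPM in control and at 118 and 62.4 CPM in *Eed* KO libraries (1.36 ± 0.39, SE, adjusted p = 0.0435, edgeR), a call lost without adult control replicate 2 (0.99) or adult *Eed* KO replicate 1 (0.80). *Cxcl10* stood at 17.7 and 15.2 against 59.0 and 33.6 CPM (1.49 ± 0.31, SE, adjusted p = 0.0137, edgeR). *Cxcl11* was not tested, with no count in control libraries and 7 and 1 in the others. Among the membrane-bound ligands, *Cxcl16* stood at 248 and 201 against 662 and 767 CPM (1.67 ± 0.21, SE, adjusted p = 0.0020, edgeR), and *Cx3cl1* stood at 5.84 and 3.22 against 5.31 and 15.7 CPM with overlap. The ligands of *Ccr7*, which draws dendritic cells and naive T cells to lymphoid tissue, both rose. *Ccl21a* stood at 48.9 and 52.2 against 788 and 484 CPM, a log2 fold change of 3.65 ± 0.29 (SE), and *Ccl19* stood at 6.35 and 3.64 against 59.2 and 28.6 CPM, a log2 fold change of 3.13 ± 0.44 (SE) that was 2.49 without adult *Eed* KO replicate 1. The ligands of *Ccr4*, found on regulatory and helper T cells, also rose. *Ccl22* stood at 3.21 and 2.1 against 23.1 and 26.8 CPM, a log2 fold change of 3.23 ± 0.33 (SE), and *Ccl17* went from 1 and 2 counts to 56 and 59, for a ratio of 46.8 and a 95% counting interval from 15.6 to 230.2.

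None of the mucosal and skin chemokines was called in the adult, of which 3 of 6 were tested. *Ccl25*, which draws T cells to the small intestine through *Ccr9*, stood at 4.02 and 8.25 against 11.4 and 5.56 CPM, and *Ccl27a* and *Ccl27b* stood at or under 3.78 CPM in all 4 libraries. Their groups overlapped. Of the members left, *Ccl21b* had no count in any of the 12 libraries, and *Ccl20*, *Xcl1*, *Ccl26*, *Cxcl17*, *Ccl1* and *Ccl28* had at most 7 counts in any adult library and were not tested there.

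Most receptor genes tested also rose in the adult. Of 16 receptors tested, 10 were higher and none was lower, against 12.3% and 7.23% of all genes tested, with a median log2 fold change of 2.12. Among them were *Ccr1* (5.01), *Cx3cr1* (3.60), *Ccr2* (3.53) and *Ccr1l1* (2.81), mostly receptors of monocytes and macrophages. *Cx3cr1* is also in the list of macrophage markers, so the results of the 2 lists are not separate. *Ccr2* stood at 13.9 and 12.4 CPM in control and at 148 and 158 CPM in *Eed* KO libraries. *Cxcr4* stood at 3.43 and 1.68 against 13.6 and 15.7 CPM (2.52 ± 0.43, SE, adjusted p = 0.0070, edgeR), the opposite direction to *Cxcl12*. Of the 4 atypical receptors 1 was called, *Ackr2*, which scavenges inflammatory CC chemokines, with no count in control and 1.20 and 1.31 CPM in *Eed* KO libraries. The chemokines of platelets, *Pf4* and *Ppbp*, which the naming rule leaves out, were both called higher, with *Pf4* at 7.52 and 20.2 against 393 and 368 CPM, while the platelet and megakaryocyte markers summed to 2.1 and 2.99 CPM in control and to 2.40 and 4.78 CPM in *Eed* KO libraries.

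Several marker lists also differed between the adult groups. Macrophage markers were called higher in 14 of 14 genes with a median log2 fold change of 4.84, and among them were *Ptprc* (4.04) and the receptor gene *Csf1r* (4.99). Mesenchymal markers summed to 11360 and 11878 CPM in control and to 3474 and 4974 CPM in *Eed* KO libraries, and 4 of 7 tested were lower, with *Pdgfra* at -1.79 and *Col3a1* at -1.60. Smooth muscle markers went the other way, at 1865 and 2313 against 3200 and 3788 CPM, with 3 of 7 higher and 0 lower. Lymphatic endothelial markers summed to 252 and 220 against 98.8 and 138 CPM, with 2 of 4 higher and 1 lower. Immediate early and dissociation genes summed to 8103 and 9031 CPM against 18391 and 19906 CPM, with 7 of 13 called higher. Lymphocyte markers summed to 58.5 and 66.1 CPM against 113 and 143 CPM, with 2 of 10 higher and 1 lower. Of the NF-κB and acute inflammation list 9 of 19 were higher, among them *Tnf* (4.30) and *Il1b* (3.26), and 1 was lower, and of the interferon response list 7 of 20 were higher and 2 lower. The part of these in the chemokine result was not tested. Set beside the summed markers, some chemokines no longer separated the groups, and most of those called higher stood lower per CPM of macrophage markers. Per 1000 CPM of mesenchymal markers, *Cxcl12* stood at 169 and 164 CPM in control and at 130 and 135 CPM in *Eed* KO libraries, *Ccl11* at 137 and 91.1 against 86.4 and 126 CPM, and *Cxcl13* at 21.7 and 13.2 against 13.6 and 29.7 CPM. The groups overlapped for *Ccl11* and *Cxcl13* and did not for *Cxcl12*. Per 1000 CPM of macrophage markers, *Ccl7* stood at 62.9 and 44.3 against 39.2 and 86.8 CPM and *Ccl12* at 6.40 and 14.0 against 11.2 and 9.40 CPM, with overlap. *Cxcl2* and *Ccl9* also overlapped. *Ccl4* stood higher in *Eed* KO libraries on that scale, at 16.2 and 22.8 against 27.2 and 37.3 CPM, as did *Ccl3*, *Ccl17* and *Ccl24*. The remaining members called higher in the adult stood lower on it in both *Eed* KO libraries. Among these were *Cxcl16*, at 298 and 166 against 26.1 and 30.5 CPM, and *Ccl2*, at 96.5 and 52.0 against 21.0 and 38.5 CPM. *Ccl8* was another, at 54.6 and 49.9 against 13.9 and 14.6 CPM.

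**Figure D4:**
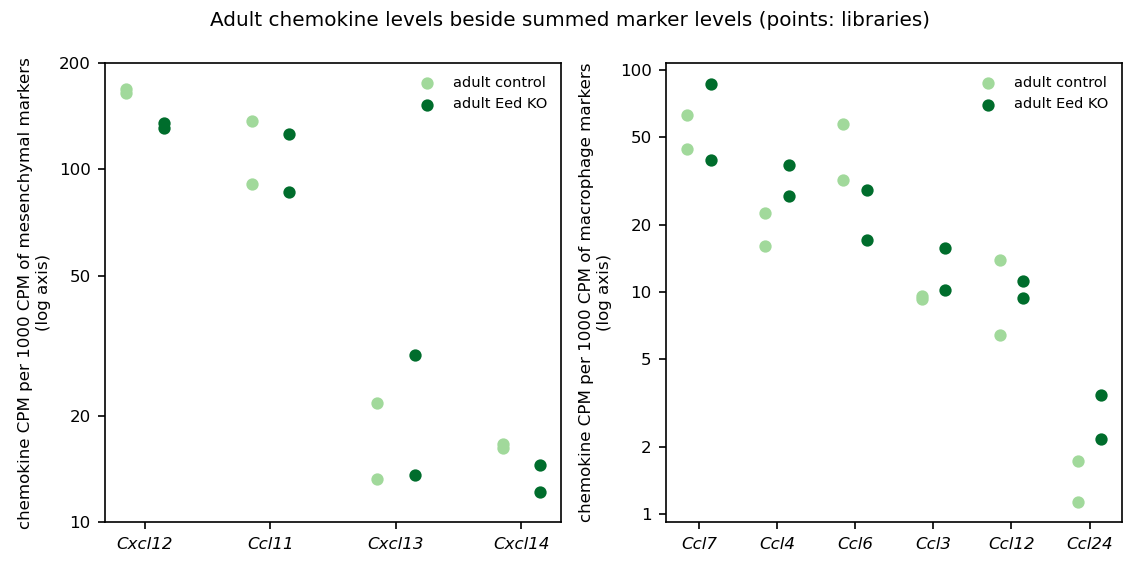
Chemokine CPM per 1000 CPM of summed mesenchymal markers (left) and of summed macrophage markers (right) in the adult libraries, on log axes, with a point for each library. On this scale control and *Eed* KO points overlap for *Ccl11*, *Cxcl13*, *Ccl7* and *Ccl12* and stay apart for *Cxcl12*, *Cxcl14*, *Ccl4*, *Ccl6*, *Ccl3* and *Ccl24*.

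The difference between *Eed* KO and control libraries was compared between the adult and the embryonic intestine in 1 fit of 4 group means, although adult *Eed* itself was not called lower. Of 31 members tested, the difference was called higher in the adult for 5 and lower for 4, against 5.78% and 4.63% of 18170 genes. *Ccl19*, *Ccl22*, *Ccl17*, *Ccl8*, *Ccl5*, *Ccl9* and *Ccl4* had no count in the embryonic intestinal libraries, so the contrast could not be estimated for them and could not call them. For *Cxcl2* and *Ccl24*, with few embryonic counts, the SE was 10.4 and 7.07. With spike-in totals 1 was higher and 6 were lower, and with 1 spike-in factor none was higher and 1 was lower, *Cxcl13* (-3.43). Shares of all genes called are not given for these alternatives. Lower in the adult were *Cxcl14*, *Cxcl12*, *Ccl11* and *Cxcl13*. For *Cxcl14* the log2 difference was -4.52 ± 0.50 (SE, adjusted p = 0.0019, edgeR), from 2.74 in the embryo and -1.78 in the adult, and for *Cxcl12* it was -2.21 ± 0.26 (SE, adjusted p = 0.0023, edgeR), from 0.41 and -1.79. Higher were *Ccl7* (4.35 ± 0.67, SE, adjusted p = 0.0066, edgeR) and *Ccl2* (3.11 ± 0.43, SE, adjusted p = 0.0039, edgeR), neither of which was called in the embryonic intestine. With the TMM scaling used throughout, these 4 kept their calls when any 1 of the 8 libraries was left out, although *Cxcl14* moved to -5.61 and -3.85 without control intestine replicate 1 or 2 and *Ccl7* to 3.70 without adult *Eed* KO replicate 2. None of the 4 was called with 1 spike-in factor (-4.85 for *Cxcl14*, -2.30 for *Cxcl12*, 4.4 for *Ccl7* and 2.41 for *Ccl2*), and with spike-in totals *Ccl7* (1.99) and *Ccl2* (0.89) were not called. The others were *Ccl21a*, *Ccl6*, *Cxcl16*, *Ccl11* and *Cxcl13*, which lost their calls without some libraries. In the same contrast macrophage markers were called higher in 9 of 14 genes, with a median log2 difference of 4.60, and mesenchymal markers lower in 3 of 8, with a median of -0.99. Their part in the result was not tested. The embryonic and adult groups also differ in Cre driver, time since deletion, kit and strandedness, and these cannot be told apart from age.

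ATAC-seq peaks showed which chemokine starts lay in accessible chromatin in the embryo. Each list was called on the pooled replicates of 1 condition, so lists are set side by side without a test. A peak stood within 1000 bp of the start of 16 of 38 members in the control intestine, 18 in the *Eed* KO intestine, 15 in the control stomach and 19 in the *Eed* KO stomach (42.1%, 47.4%, 39.5% and 50%), beside 43.8%, 45.8%, 44.6% and 45.6% of 43276 genes. Within 5000 bp the members numbered 22, 28, 21 and 27 in the same order (57.9%, 73.7%, 55.3% and 71.1%), beside 57.8%, 61.0%, 59.6% and 60.5% of all genes. In all 4 lists 14 members had a peak and in none of them 17. Of the 15 members tested in the embryo, 12, 13, 12 and 14 had one, beside 87.8%, 88.9%, 88.3% and 88.9% of tested genes.

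**Figure D5:**
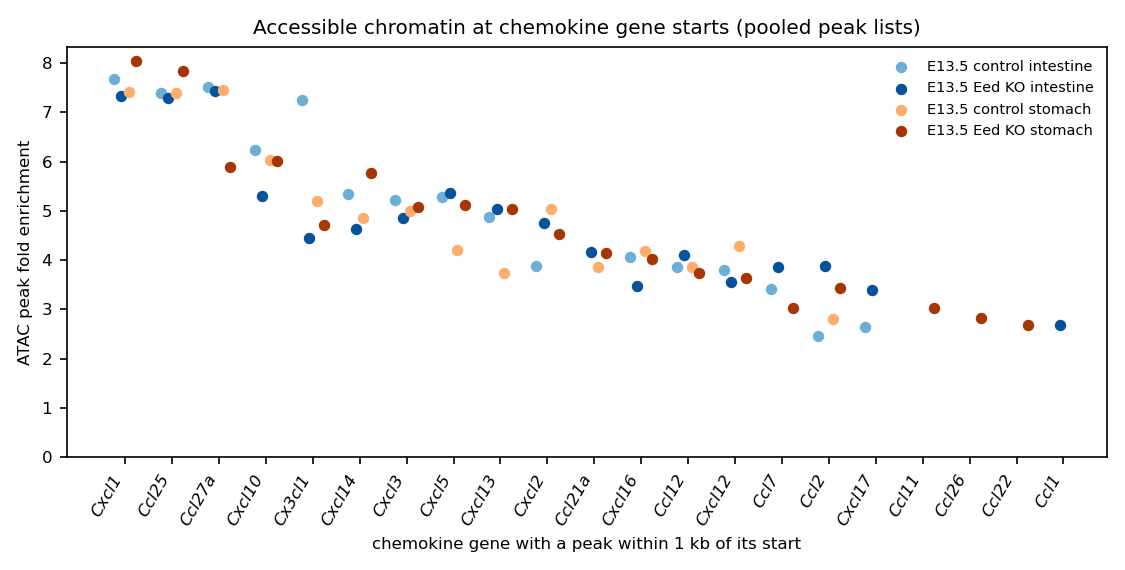
Fold enrichment over background of the ATAC-seq peak within 1 kb of the start, for the 21 chemokine genes with a peak in any of the 4 pooled lists, on a linear axis that starts at 0, with a colour for each E13.5 condition. *Cxcl1* lies near the top in all 4 conditions, and *Ccl7* has no point for the control stomach.

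Open chromatin at the start did not go with the level of RNA in all members. Among the members, *Cxcl1* had the highest fold enrichment over the background of the peak caller in 2 lists, at 7.68 in the control intestine, 7.33 in the *Eed* KO intestine, 7.41 in the control stomach and 8.05 in the *Eed* KO stomach, with 1 to 39 counts per library. *Cxcl2* had a peak in all 4 lists, at 3.88, 4.75, 5.04 and 4.52, with 4 counts in the 8 libraries together. For both, the peaks of all 4 lists covered the promoter shown above with its NF-κB matches. *Cxcl12*, the leading member per length, had peaks of 3.81, 3.55, 4.30 and 3.64, also over the promoter shown. The promoter of *Ccl3* was covered in none of the lists, and its gene had 0 to 2 counts in each embryonic library. Of genes that differed between the control organs, *Ccl7* had a peak of 3.41 in the control intestine, 3.87 in the *Eed* KO intestine and 3.03 in the *Eed* KO stomach, and none in the control stomach, the group with its lowest RNA. These peaks were weak, with a -log10 q of 3.82, 5.55 and 2.77, and the control stomach libraries held 1 and 3 counts of *Ccl7*. *Ccl2* had peaks of 2.47 and 3.88 in the intestinal and of 2.81 and 3.42 in the stomach lists, control first. *Cx3cl1* stood at 7.25 and 4.46 in the intestine and at 5.19 and 4.72 in the stomach, so its tallest peak was in the group with the least RNA.

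Base composition was set beside accessibility and the adult response, as a description. The promoters of members with a peak in all 4 lists had a median of 11 CpGs (11 promoters), and those of members with a peak in none had a median of 3 (12 promoters). The 15 promoters of members that rose in the adult *Eed* KO libraries held 2 to 11 CpGs with a median of 4. The 3 of members that fell held 20 (*Cxcl12*), 22 (*Cxcl14*) and 3 (*Cxcl13*), and no promoter sequence was at hand for *Ccl11*. The median over all 32851 promoters was 7.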

How the data were processed

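RNA counts per gene were deposited without normalization. The authors trimmed reads with Trimmomatic 0.32, aligned them with STAR 2.5.1b to GRCm38/mm10 and counted them on GENCODE vM4 with featureCounts (1.5.0 and 2.5.0 per the submitters' processing notes), with strand in the embryonic and without strand in the adult libraries. ATAC-seq reads were aligned with BWA 0.7.8, pooled per condition by the authors, and broad peaks were called with MACS2 2.1.2. The authors deposited for each peak a fold enrichment, which is a ratio, and a -log10 q.

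Counts were tested with edgeR 4.0.16 (limma 3.58.1, R 4.3.3) by the quasi-likelihood F-test after TMM scaling and filterByExpr, with Benjamini-Hochberg adjustment over all genes tested. The 8 embryonic libraries were fitted with 4 group means and the 4 adult libraries with 2, and 4 embryonic intestinal and 4 adult libraries entered a fit of the difference between the ages. The biological coefficient of variation was 15.8% in the embryonic, 29.1% in the adult and 23.5% in the combined fit. Standard errors (SE) are the log2 fold change divided by the root of F. Ratios of groups with 1 to 3 counts carry an exact 95% counting interval. TPM used gene lengths from the adult files. Replicates differed by more than sampling noise in all 6 groups. The study's own tests used DESeq2 with factors of unwanted variation, and here DESeq2 1.42.0, other scalings including spike-in RNA, other filters, a replicate block and fits without 1 library served as alternatives. The procedure was tested on simulated data in which only genes with higher counts were changed, so members with few counts were not covered. Tables were made with Python 3.11.15 and pandas 2.3.3.

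Members called in any comparison, and those at a mean of 5 CPM or more in any group, were to be given with the value in every library. Members, lists and roles were chosen with earlier results of these data known. Genes of other lists were named when called, at most 5 per list, in the adult and stomach comparisons. No promoter sequence was at hand for *Cxcl5*, *Cxcl11*, *Ccl26*, *Ccl24*, *Cxcl17*, *Cxcl16*, *Ccl2*, *Ccl7*, *Ccl11*, *Ccl5* and *Ccl4*. Those of *Ccl21b* and *Ccl1* were left out because the RefSeq start lay over 1000 bp from the GENCODE start. The values of 1 receptor gene are not reported here.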

Additional observations from a re-analysis of the deposited data

Results flagged for a closer look

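For 9 chemokine genes the difference between *Eed* KO and control libraries was not the same in the adult and the embryonic intestine, by a test of the difference itself (edgeR, adjusted p under 0.05, log2 difference above 1 in size, adult minus embryo). Lower in the adult were 4, with -4.52 for *Cxcl14*, -2.21 for *Cxcl12*, -2.04 for *Ccl11* (adjusted p = 0.0207) and -2.01 for *Cxcl13* (adjusted p = 0.0393). Higher were 5, with 6.94 for *Ccl6* (adjusted p = 0.0396), 4.35 for *Ccl7*, 4.14 for *Ccl21a* (adjusted p = 0.0167), 3.11 for *Ccl2* and 1.36 for *Cxcl16* (adjusted p = 0.0183). The value for *Ccl6* rests on 3 embryonic control counts and none in the *Eed* KO intestine, so its size is poorly fixed, and with spike-in totals the value for *Cxcl16* turned to -0.93. When 1 of the 8 libraries was left out in turn, the call was lost in 6 fits for *Ccl6*, in 5 for *Cxcl13*, in 4 for *Ccl11*, in 3 for *Cxcl16* and in 2 for *Ccl21a*. The log2 differences then ranged from 6.27 to 7.38, from -2.41 to -1.47, from -2.39 to -1.58, from 1.20 to 1.5 and from 3.17 to 4.64. Age, Cre driver, time since deletion, kit and strandedness cannot be told apart in this contrast. Adult *Eed* was not called lower (log2 fold change -0.32, adjusted p = 0.317, edgeR). Macrophage markers were called higher in 9 of 14 genes (median log2 difference 4.60) and mesenchymal markers lower in 3 of 8 (median -0.99) in the same contrast, and their part in it was not tested. With 1 spike-in factor the call was left for *Cxcl13* only (-3.43), and with spike-in totals it was lost for *Ccl2*, *Ccl7*, *Ccl21a* and *Cxcl16*. Outliers within a group could not be looked for with 2 libraries each.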

How the results depend on the processing

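In the adult comparison the 25 chemokine calls stayed within 21 (16 higher, 5 lower, with spike-in totals) and 27 (no filter on low counts), and when 1 library was left out they ranged from 23 to 25. With DESeq2 the calls were 4 for the stomach, 2 for the intestine, 4 between the control organs, 3 between the *Eed* KO organs, 3 for the difference between the organs and 25 in the adult. The embryonic counts were small and moved more, and the cause was not tested. Shares of all genes called are not given for the alternatives, so these counts are not read as a trait of chemokines. With spike-in totals the median log2 fold change of all genes tested was itself 2.39 in the stomach and 1.85 in the intestine. For the stomach (3 calls) they were 5 without the filter and 11 with spike-in totals, and 2 to 3 with 1 library left out. For the intestine (0 calls) they were 2 with DESeq2, 2 without the filter, 1 with upper-quartile scaling, 11 with spike-in totals and 1 with 1 factor of variation estimated from the spike-in RNA, and 0 in all fits with 1 library left out. Between the control organs (5 calls) they were 3 with a filter of at least 1 CPM in 2 libraries and 1 with spike-in totals, and 1 to 2 with 1 library left out. Between the *Eed* KO organs (2 calls) they were 0 with spike-in totals and 4 with the spike-in factor, and 0 to 2 with 1 library left out. For the difference between the organs (0 calls) they were 3 with DESeq2, 3 without the filter and 1 with the spike-in factor, and 0 to 1 with 1 library left out. For the difference between adult and embryo (9 calls, 11 with DESeq2) the count was 1 with the spike-in factor and 7 with spike-in totals (1 higher, 6 lower), and 4 to 9 with 1 library left out, the lowest without control intestine replicate 1. In fits that left 1 library in a group, that library was assumed to vary like the others.

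Scaling to spike-in totals moved the median log2 fold change of all genes tested to 2.39 in the stomach, 1.85 in the intestine, 0.30 between the control organs, -0.24 between the *Eed* KO organs and -0.42 in the adult, where upper-quartile scaling moved it to -0.15, and changes in the text are relative to that median. It reversed 3 values, *Cxcl13* in the stomach (1.16), *Ccl28* in the intestine (0.31) and *Cxcl16* between adult and embryo (-0.93). Counts of members at 1 TPM or more were 9 to 11 in the embryonic and 29 to 30 in the adult control intestine with 1 library left out. With a window of 5000 bp, 28 members had a peak in the *Eed* KO intestine.

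Groups share replicate numbers, but no label says that a number marks shared embryos. Deviations of same-numbered libraries from their group means had correlations of 0.211 between the intestinal genotypes, 0.149 between the stomach genotypes, 0.392 between the control organs, 0.778 between the *Eed* KO organs and -0.0794 in the adult. With a replicate block the calls were 5 for the stomach, 2 for the intestine, 2 for the difference between the organs and 7 between adult and embryo. With a block of organ pairs within each genotype, in which the same number stands for the same embryos, they were 5 between the *Eed* KO organs and 3 for the difference between the organs. Depth limits the 23 members that were not tested in the embryo, of which 11 had no count.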

Other observations

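For the 2 chemokines with the highest mean TPM in the embryo, the genes with the most similar pattern over the 8 embryonic libraries were listed by Pearson's r of log2(CPM + 0.5), as a description, since these libraries share organs and genotypes. Nearest to *Cxcl12* were *Mmp9* (r = 0.989), *Ldb2* (0.976), *Slc2a3* (0.976), *Slc7a7* (0.969) and *Hoxd8* (0.969). Nearest to *Cxcl13*, which was lowest in the *Eed* KO stomach, were *Gja5* (0.964), *Syndig1* (0.936), *Gm3699* (0.932), *Mycn* (0.922) and *Gm10288* (0.918).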
